A study of Mus musculus with 8 samples.

Results

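Heteromeric amino acid transporters are built from an SLC3 heavy chain, which carries the complex to the plasma membrane, and an SLC7 light chain, which moves the amino acids. In the proximal tubule of the kidney, the heavy chain rBAT (*Slc3a1*) pairs with the light chain b0,+AT (*Slc7a9*) at the apical membrane to take up cystine and basic amino acids from the filtrate, and loss of either gene causes cystinuria. The heavy chain 4F2hc (*Slc3a2*) pairs with several light chains, among them y+LAT1 (*Slc7a7*) and LAT2 (*Slc7a8*), which work at the basolateral membrane, and loss of *Slc7a7* causes lysinuric protein intolerance. The 10 genes described here are the 2 heavy chains (*Slc3a1* and *Slc3a2*) and 8 light chains or light chain relatives (*Slc7a5*, *Slc7a6*, *Slc7a7*, *Slc7a8*, *Slc7a9*, *Slc7a11*, *Slc7a12* and *Slc7a13*). They were chosen from these families, with earlier results of these data known, out of 55367 genes in the count table. All 10 had enough counts to be tested, as did 20149 genes in total.

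RNA-Seq was performed on the whole kidneys of 8 C57BL/6J mice aged 8 weeks to find which transcripts depend on the transcription factor c-Maf in the adult kidney. The 4 conditional knockouts (*c-Maf* ΔTAM, ΔTAM mice from here on) carried the tamoxifen-activated recombinase transgene *CAG-Cre-ER* TM, which the 4 controls (*c-Maf fl/fl*) lacked. All 8 carried the floxed *c-Maf* alleles and all received tamoxifen (TAM), and kidneys were taken 10 days later. The CAG promoter is active in nearly every cell type, so the deletion was not limited to the tubule, and Cre itself differed between the groups along with *c-Maf*. Counts summed to between 16649129 and 22990257 per mouse. Levels are given as CPM (counts scaled to a common library size with TMM factors), and levels of the transporter genes are compared with each other as CPM per kb of exonic length. The most abundant gene of a marker list is the one with the highest mean CPM of the 8 mice, whatever its length.

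Mitochondrial transcripts took 17.1% to 25.5% of counts in the 4 control mice, 18.7% to 22.1% in ΔTAM mice 2, 3 and 4, and 32.3% in ΔTAM mouse 1, which also had the highest total. *Xist*, the transcript made from the inactive X chromosome, separated the mice in another way. It was at 946 to 1011 CPM in 5 mice and at 0.102 CPM in ΔTAM mouse 1, 0.304 CPM in control mouse 3 and 1.29 CPM in control mouse 4. The Y-linked gene *Ddx3y* had 773 to 917 counts in those 3 mice and 0 to 7 counts in the other 5. The low-*Xist* mice were thus 1 of 4 ΔTAM and 2 of 4 control mice, and results are also given for the 5 high-*Xist* mice alone and with *Xist* as a covariate. The labels do not state the sex of the mice.

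The protocol text in the labels speaks of liver RNA, whereas the samples are labelled as kidney. The proximal tubule endocytic receptor megalin (*Lrp2*) was at 4466 to 8602 CPM and the thick ascending limb gene *Umod* averaged 2588 CPM in ΔTAM and 2829 CPM in control mice. Albumin (*Alb*), the leading transcript of hepatocytes, reached at most 8.85 CPM in any mouse, and the urea cycle gene *Cps1* was at 0 to 0.108 CPM. The counts are those of kidney.

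*Maf* itself (chr8:115682942-115707794, GRCm38, minus strand) was at 9.06, 34.5, 29.6 and 10.1 CPM in ΔTAM mice 1 to 4, against 380, 342, 305 and 351 CPM in controls 1 to 4. Every ΔTAM mouse lay below every control, at a mean of 6.03% of the control level, as the genotype labels state for all 8 mice. The log2 fold change was -4.05 (SE 0.51, adjusted P = 0.0115, edgeR quasi-likelihood test). The remaining *Maf* level was lowest in ΔTAM mice 1 and 4. With the 5 high-*Xist* mice alone, the log2 fold change was -3.87 and missed the threshold (adjusted P = 0.108, 3 mice against 2).

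Of the 10 transporter genes, 4 were lower in ΔTAM kidneys at an adjusted P under 0.05 (*Slc3a2*, *Slc7a7*, *Slc7a8* and *Slc7a9*), where 1.58% of all tested genes were lower, and 0 were higher, where 0.586% of all tested genes were. The apical heavy chain *Slc3a1* was not among them. The count of genes higher was 0 also at an unadjusted P under 0.05 in edgeR, and 0 with DESeq2, with edgeR's exact test and with limma. In the same 4 genes all 4 ΔTAM mice lay below all 4 controls, which held for 5.62% of tested genes. The other 6 overlapped between the genotypes, and none had all deleted mice above all controls, against 4.17% of tested genes. The median log2 fold change of the 10 genes was -0.43, and that of all tested genes was 0.0027. The tissue is bulk kidney, in which fewer cells of a type and less RNA per cell cannot be told apart.

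The lower genes were called with and without the low-*Xist* mice. In the 5 high-*Xist* mice, 4 of the 10 genes were lower (2.22% of 21027 tested genes) and 0 were higher in edgeR (1.53% of tested genes; 1 at an unadjusted P under 0.05, *Slc7a12*). With *Xist* as a covariate 4 were lower (4.23% of 20149 tested genes) and 0 higher (2.59%; 1 at an unadjusted P under 0.05). The names were *Slc3a2*, *Slc7a7*, *Slc7a8* and *Slc7a9* in both.

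**Figure D1:**
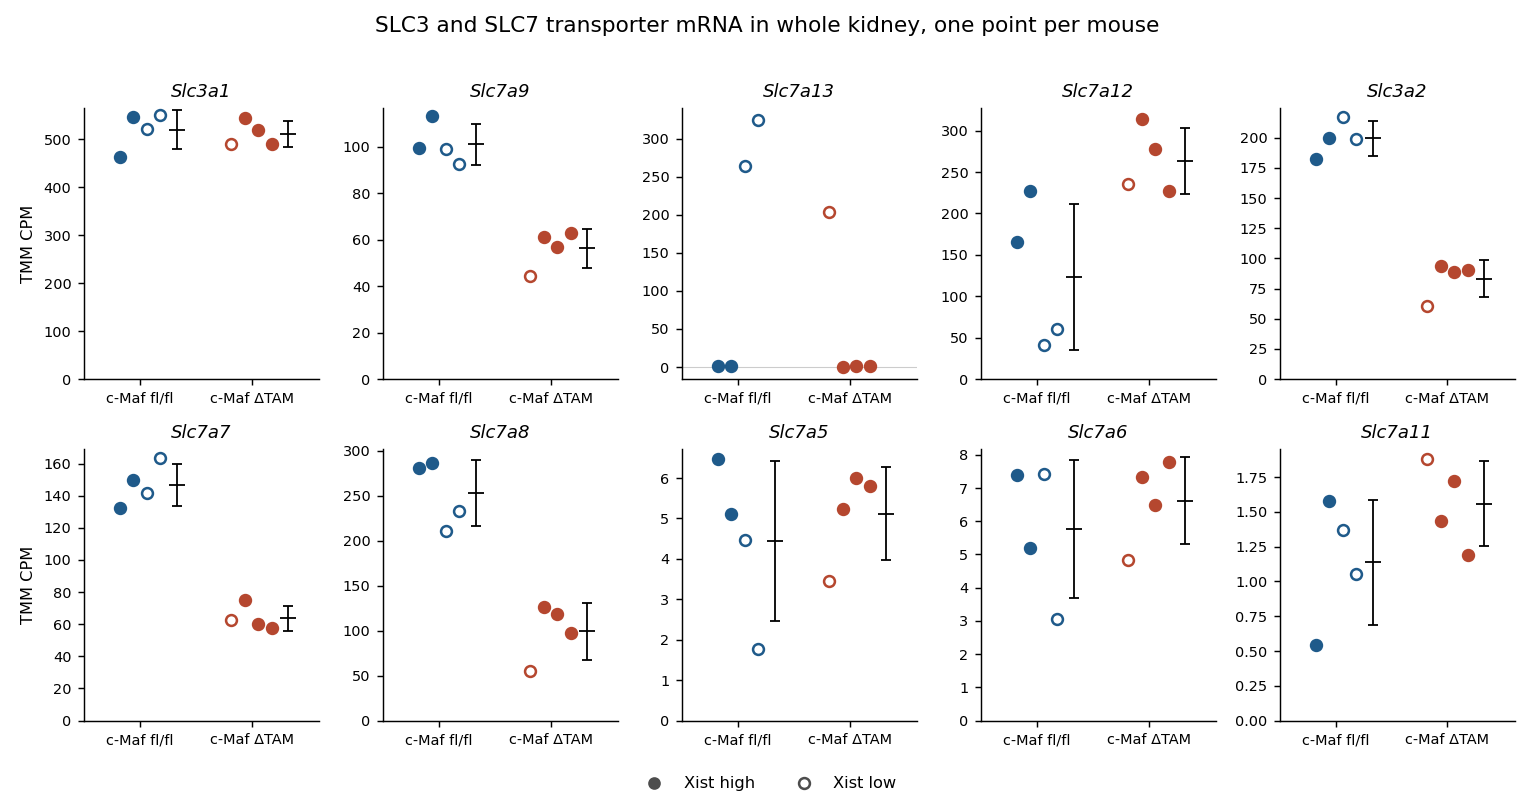
TMM-scaled CPM (linear axis) of the 10 transporter genes in each of 4 control (blue) and 4 ΔTAM (red) mice, with filled points for high-*Xist* and open points for low-*Xist* mice and bars for the mean and SD of 4 mice (no bar for *Slc7a13*, which is on or off). *Slc3a2*, *Slc7a7*, *Slc7a8* and *Slc7a9* separate by genotype, *Slc7a13* separates by *Xist*, and *Slc7a12* is low only in control mice 3 and 4, at 40.7 and 60.0 CPM.

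Among the heavy chains, the apical *Slc3a1* (chr17:85028376-85064236, plus strand) was at 489, 543, 520 and 489 CPM in ΔTAM mice 1 to 4, against 462, 546, 520 and 550 CPM in controls 1 to 4. The groups overlapped throughout. The log2 fold change was -0.03 with a 95% interval of -0.22 to 0.17 (adjusted P = 0.936), so that a fall of the size seen in *Slc3a2* lies outside the interval. Of its exonic bases, 26.5% are shared with *Prepl* on the opposite strand, and since strand was not used in counting, reads there could not be assigned to either gene. Its level per kb is therefore counted over fewer bases than its full exonic length.

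The other heavy chain, *Slc3a2* (chr19:8706882-8723369, minus strand), encodes the 4F2hc chain that brings several light chains to the membrane of most cells. It was at 60.9, 93.3, 88.6 and 90.5 CPM in ΔTAM mice 1 to 4, against 182, 200, 217 and 199 CPM in controls 1 to 4. All deleted mice lay below all controls, and mouse 1, with low *Xist*, was the lowest. The mean fell from 199 ± 14.2 CPM to 83.3 ± 15.1 CPM (SD, n = 4 each), to 41.8% of the control level. The log2 fold change was -1.26 (SE 0.13, 95% interval -1.54 to -0.98, adjusted P = 0.00026, edgeR), and it ranged from -1.32 to -1.13 when each mouse was left out. The 2 heavy chains thus diverged within each kidney: the ratio of *Slc3a1* to *Slc3a2* per kb was 3.72 to 4.30 in the controls and 8.40 to 12.5 in ΔTAM mice.

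The light chain of *Slc3a1* in the early proximal tubule is *Slc7a9* (chr7:35448796-35466036, plus strand). It was at 44.4, 61.4, 56.8 and 63.0 CPM in ΔTAM mice 1 to 4, against 99.5, 113, 98.9 and 92.7 CPM in controls 1 to 4. The highest deleted mouse was well under the lowest control. *Slc7a9* fell to 55.8% of the control mean (log2 fold change -0.84, SE 0.11, adjusted P = 0.0020, edgeR), the smallest of the 4 called falls, and was called whichever mouse was left out. The ratio of *Slc7a9* to *Slc3a1* was 0.166 ± 0.018 per kb in the controls and 0.0937 ± 0.013 in ΔTAM mice (SD, n = 4 each), with no overlap. In both genotypes the message for the heavy chain exceeded that for this light chain in every mouse.

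*Slc7a13* (chr4:19818725-19842218, plus strand) encodes AGT1, the aspartate, glutamate and cystine transporter that pairs with *Slc3a1* in the late proximal tubule (S3) and is known to be far higher in male than in female mice. It was at 204 CPM in ΔTAM mouse 1 and at 264 and 324 CPM in control mice 3 and 4, which are the 3 low-*Xist* mice. The 5 high-*Xist* mice had 8 to 24 counts each, or 0.411 to 1.08 CPM. The difference with *Xist* was far larger than that with genotype, and within each *Xist* class the ΔTAM mice lay below the controls, which were at 1.08 CPM in both high-*Xist* mice against 0.411, 0.721 and 0.812 CPM in ΔTAM mice 2 to 4. Among low-*Xist* mice, the single deleted mouse stood at 0.695 of the mean of the 2 controls. The genotype test over all mice gave a log2 fold change of -1.51 with an interval of -7.48 to 4.46 (adjusted P = 0.845), which says little in either direction. It was -7.82 without ΔTAM mouse 1 and -0.77 without control mouse 4, the extremes with a mouse left out, and was called in none of these fits. The log2 fold change was -0.74 in the high-*Xist* mice (SE 0.48, adjusted P = 0.524) and -1.82 with *Xist* as a covariate (SE 0.62, unadjusted P = 0.0317, adjusted P = 0.189), and neither passed the test. Among low-*Xist* mice, the ratio of *Slc7a13* to *Slc3a1* per kb was 0.443 in ΔTAM mouse 1 and 0.538 and 0.626 in control mice 3 and 4. In the 5 high-*Xist* mice it was 0.00080 to 0.0025.

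*Slc7a12* (chr3:14480697-14505830, plus strand) encodes Asc-2, a light chain relative without an assigned heavy chain and known to be higher in female than in male mouse kidney. It was at 236, 314, 278 and 227 CPM in ΔTAM mice 1 to 4, against 165, 227, 40.7 and 60.0 CPM in controls 1 to 4. Among controls the high-*Xist* mice were 3.89 times as high on average as the low-*Xist* mice, whereas the low-*Xist* ΔTAM mouse was within the range of its high-*Xist* group. That mouse was thus at 4.68 times the mean of the low-*Xist* controls, and had a high *Slc7a13* level together with a high *Slc7a12* level, a pair of levels seen in no other mouse. The genotypes overlapped by less than 1 CPM (lowest deleted mouse 226.6 CPM, highest control 227.1 CPM), and the log2 fold change of 1.10 (SE 0.56, interval -0.24 to 2.43) did not pass the test (adjusted P = 0.455). In the high-*Xist* mice alone it was 0.47 (SE 0.18, interval 0.05 to 0.90, adjusted P = 0.279). Whether the genotype difference of this gene itself differs with *Xist* was not tested, since 1 deleted mouse carries the comparison.

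The *Slc3a2* partners with the most message were *Slc7a7* and *Slc7a8*. *Slc7a7* (chr14:54369442-54417780, minus strand), the basolateral exporter of basic amino acids, was at 62.6, 75.0, 59.9 and 57.7 CPM in ΔTAM mice 1 to 4, against 132, 150, 142 and 163 CPM in controls 1 to 4. The deleted mice fell in a narrow band at 43.5% of the control mean, with low-*Xist* mouse 1 inside the range of the other 3. The log2 fold change was -1.20 (SE 0.10, interval -1.43 to -0.97, adjusted P = 9.4e-05, edgeR), with a range of -1.29 to -1.14 when each mouse was left out. Exons of *Oxa1l* on the opposite strand share 7.00% of its exonic bases.

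*Slc7a8* (chr14:54722209-54781946, minus strand), the basolateral exchanger of neutral amino acids, lies on the same chromosome and strand as *Slc7a7*. It was at 55.4, 126, 118 and 97.6 CPM in ΔTAM mice 1 to 4, against 281, 286, 211 and 233 CPM in controls 1 to 4. The groups did not overlap, and within each genotype the low-*Xist* mice were the lowest. The log2 fold change was -1.35 (SE 0.24, interval -1.90 to -0.80, adjusted P = 0.0265, edgeR), the largest called fall of the 10 genes and the least steady call. It passed in 3 of 8 fits with a mouse left out (without ΔTAM mouse 1, ΔTAM mouse 2 or control mouse 3), where the fold change ranged from -1.48 to -1.15 and the adjusted P from 0.00072 to 0.0856. Taking *Xist* into account narrowed the error: the log2 fold change was -1.32 (SE 0.10, adjusted P = 1.4e-06) in the high-*Xist* mice and -1.52 (SE 0.12, adjusted P = 3.6e-06) with *Xist* as a covariate.

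Per kb, the ratio of *Slc7a7* to *Slc3a2* was 0.785 ± 0.075 in the controls and 0.837 ± 0.188 in ΔTAM mice, and that of *Slc7a8* to *Slc3a2* was 0.902 ± 0.182 and 0.824 ± 0.151 (SD, n = 4 each). Over all 8 mice both ratios overlapped between the genotypes. In the 5 high-*Xist* mice the ratio of *Slc7a8* to *Slc3a2* did not, at 0.955, 0.942 and 0.760 in ΔTAM mice 2 to 4 and 1.09 and 1.01 in control mice 1 and 2. The 2 light chains summed gave 1.69 ± 0.22 per *Slc3a2* message in the controls and 1.66 ± 0.16 in ΔTAM mice.

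The remaining *Slc3a2* partners were at low levels in whole kidney and did not pass the test. *Slc7a5*, the large neutral amino acid transporter LAT1 of growing cells and vessels (chr8:121881150-121907694, minus strand), was at 3.46 to 5.99 CPM in ΔTAM and 1.76 to 6.47 CPM in control mice (log2 fold change 0.19, interval -0.53 to 0.92). *Slc7a6*, the y+LAT2 exchanger found in many tissues (chr8:106168857-106198706, plus strand), was at 4.83 to 7.80 and 3.05 to 7.41 CPM (log2 fold change 0.19, interval -0.38 to 0.77). *Slc7a11*, the cystine and glutamate exchanger xCT (chr3:49892526-50443614, minus strand), had only 11 to 37 counts per mouse, or 0.540 to 1.88 CPM (log2 fold change 0.45, interval -0.28 to 1.18). In all 3 the interval spans 0.

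The levels of these genes overlapped between the genotypes and that of *Slc3a2* fell, and the ratios of these 3 light chains to *Slc3a2* were higher in every ΔTAM mouse than in any control. The ratio per kb was 0.058 ± 0.0053 against 0.022 ± 0.011 for *Slc7a5*, 0.061 ± 0.0041 against 0.022 ± 0.0084 for *Slc7a6* and 0.0050 ± 0.0020 against 0.0014 ± 0.00053 for *Slc7a11* (SD, n = 4 each). They were small beside the others: all 5 light chains summed gave 1.79 ± 0.16 per *Slc3a2* message in ΔTAM and 1.73 ± 0.22 in control mice. The ratios carry no test, since both of their terms come from the comparison already tested.

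**Figure D2:**
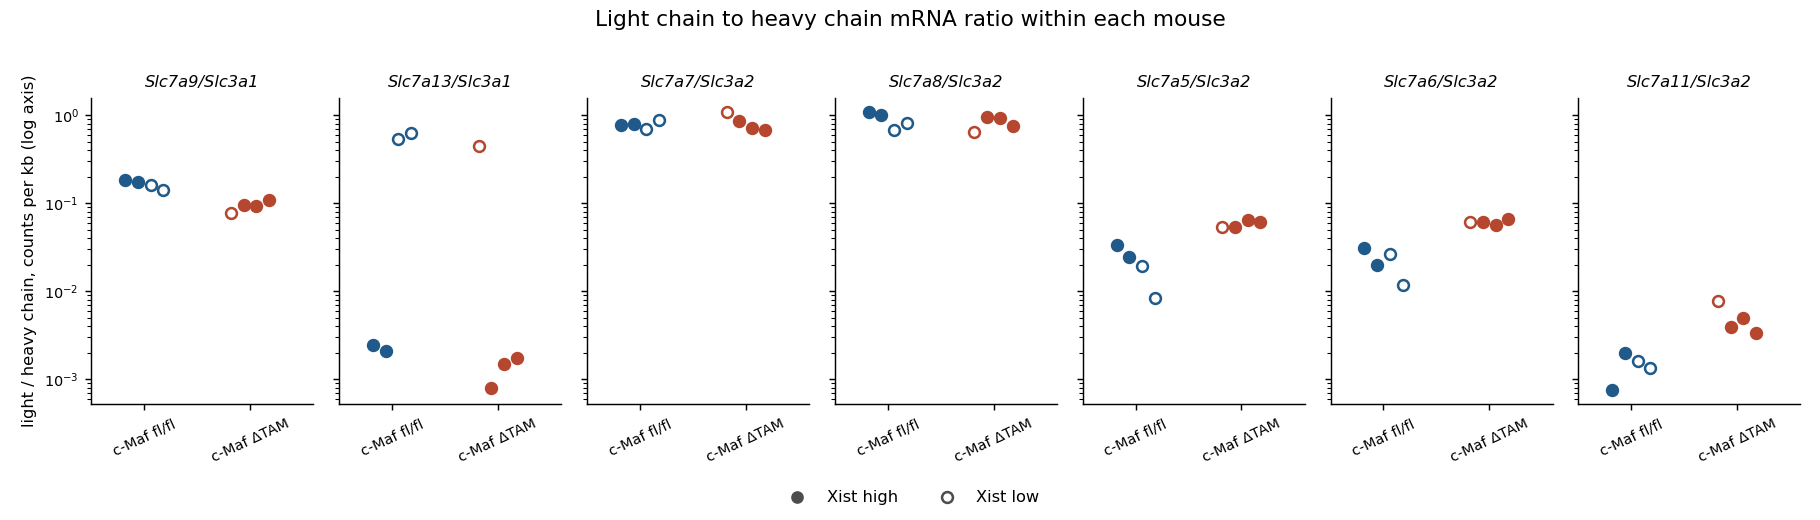
Ratio of light chain to heavy chain counts per kb of exonic length (log axis) within each of 8 mice, for the light chains of *Slc3a1* (first 2 panels) and of *Slc3a2* (other 5), with filled points for high-*Xist* and open points for low-*Xist* mice. *Slc7a9* over *Slc3a1* is lower in every ΔTAM mouse, *Slc7a7* and *Slc7a8* over *Slc3a2* overlap over all 8 mice, and the ratios of *Slc7a5*, *Slc7a6* and *Slc7a11* are higher in every ΔTAM mouse.

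In order of level per kb in the controls, *Slc3a1* stood first at 229 ± 17.9 CPM per kb, above every other member in every control mouse. *Slc7a12* (70.8 ± 50.6) and *Slc7a13* (68.9 ± 79.8) followed with wide spreads, so their rank has no meaning without *Xist*. Then came *Slc3a2* (56.5 ± 4.02), *Slc7a8* (50.5 ± 7.39), *Slc7a7* (44.3 ± 4.02) and *Slc7a9* (37.8 ± 3.27), where each overlapped its neighbour in range but *Slc3a2* and *Slc7a9* did not overlap. *Slc7a6* (1.26 ± 0.46) and *Slc7a5* (1.20 ± 0.53) were alike and far below, and *Slc7a11* was last at 0.082 ± 0.032 (SD, n = 4). In ΔTAM mice *Slc3a1* stayed first at 225 ± 11.5 CPM per kb, *Slc7a12* was at 151 ± 23.1, *Slc7a13* at 24.1 ± 47.5, and *Slc3a2* (23.6 ± 4.28), *Slc7a9* (21.1 ± 3.14), *Slc7a8* (19.9 ± 6.35) and *Slc7a7* (19.2 ± 2.34) each overlapped the others in range.

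**Figure D3:**
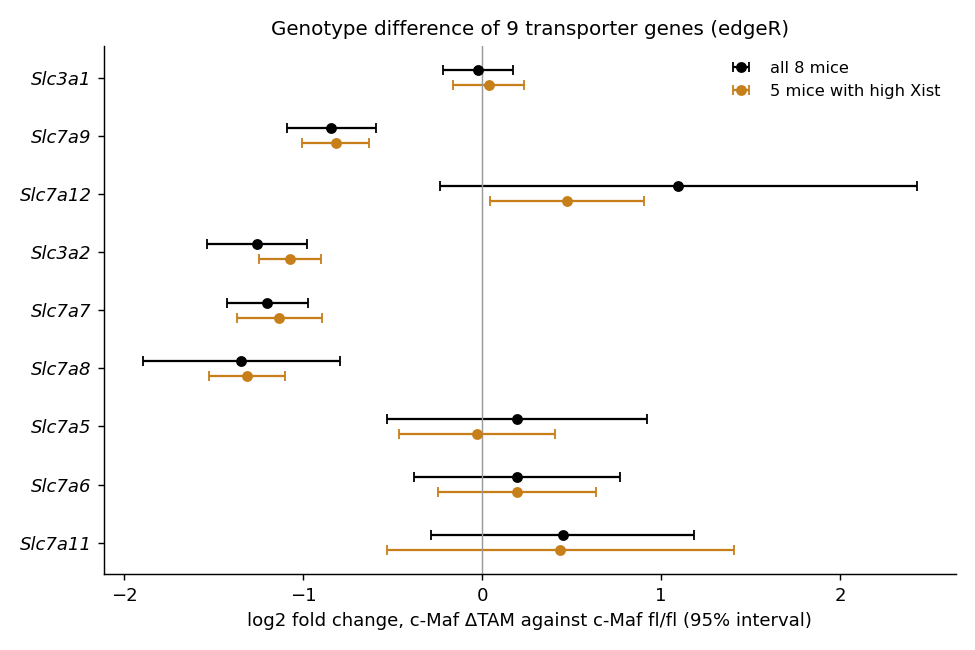
Log2 fold change of ΔTAM against control mice (edgeR, points) with 95% intervals (bars) for 9 of the 10 genes, from all 8 mice (black) and from the 5 high-*Xist* mice (orange); *Slc7a13* is left out because its interval of -7.48 to 4.46 would set the axis. *Slc3a2*, *Slc7a7*, *Slc7a8* and *Slc7a9* lie left of 0 in both fits and *Slc3a1* lies at 0.

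RefSeq promoter windows (GRCm38.p6, 250 bases before to 50 bases after a gene start) were found for 7 of the 10 genes, 13 windows in all, and not for *Slc7a5*, *Slc7a12* or *Slc7a13*. They were searched on both strands for 7 motifs, namely the half-MARE bound by Maf proteins (TGCTGAC), the full TRE-type and CRE-type MAREs, which contain it, the TRE core (TGACTCA, contained in the TRE-type MARE), the antioxidant response element core (TGACNNNGC), the ATF4 composite site (TGATGCAAT) and the HNF1 palindrome. The half-MARE, held by 4.67% of all 32851 windows, was in 0 of the 13, and so were the full MAREs (0.0030% and 0.0% of all windows), the ATF4 site (0.192%) and the HNF1 palindrome (0.0091%). The antioxidant response element core (12.4% of all windows) was in 2 windows, both of *Slc7a6* and both holding the same match. The TRE core (5.20% of all windows) was in 1, that of *Slc3a1*, on the strand opposite to the gene. A match or its absence in so short a window says nothing about whether a factor binds. The stretch of *Slc3a1* with its match in capitals (chr17:85028187-85028233, plus strand) is shown first, and then, so that RefSeq promoters of the genes that fell can be set beside it, 60 bases of each outside every annotated exon, none of which holds one of these motifs (*Slc3a2*, chr19:8713898-8713957, minus strand; *Slc7a7*, chr14:54417945-54418004, minus; *Slc7a8*, chr14:54781947-54782006, minus; *Slc7a9*, chr7:35448977-35449036, plus). Those of *Slc3a2*, *Slc7a8* and *Slc7a9* precede RefSeq starts that lie inside the gene bounds given above.
Slc3a1: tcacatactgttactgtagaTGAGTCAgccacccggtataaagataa
Slc3a2: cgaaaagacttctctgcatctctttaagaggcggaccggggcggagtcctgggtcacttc
Slc7a7: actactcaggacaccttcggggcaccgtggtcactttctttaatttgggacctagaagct
Slc7a8: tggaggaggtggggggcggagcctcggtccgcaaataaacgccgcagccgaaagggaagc
Slc7a9: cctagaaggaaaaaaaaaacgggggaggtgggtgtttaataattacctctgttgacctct

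The SLC7 family has other members, among them cationic amino acid transporters that need no heavy chain. Of 7 of these other members, 3 had enough counts to be tested, and 1 was lower and 0 higher (also 0 at an unadjusted P under 0.05, and 0 with DESeq2, edgeR's exact test and limma). *Slc7a2*, the arginine transporter CAT2, was at 4.83 ± 1.29 CPM in ΔTAM and 14.1 ± 1.56 CPM in control mice and did not overlap (log2 fold change -1.55, SE 0.19, adjusted P = 0.00084, edgeR). *Slc7a1*, the arginine transporter CAT1, was at 17.2 to 25.7 and 10.8 to 23.0 CPM and did not pass (log2 fold change 0.37, adjusted P = 0.473).

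Of 23 other epithelial amino acid transport genes, all were tested, 5 were lower and 3 were higher, and the median log2 fold change was -0.02. The lower genes included *Slc6a19*, the apical neutral amino acid transporter B0AT1 (124 ± 37.2 against 292 ± 40.9 CPM, log2 fold change -1.23, adjusted P = 0.0158, edgeR), and collectrin (*Cltrn*), which B0AT1 needs to reach the apical membrane (238 ± 69.2 against 505 ± 99.2 CPM, -1.09, adjusted P = 0.0334). Lower as well were 2 basolateral uniporters that work beside the 4F2hc exchangers, the aromatic amino acid transporter *Slc16a10* (34.5 ± 2.74 against 70.0 ± 10.8 CPM, -1.02, adjusted P = 0.00037) and the branched-chain amino acid transporter *Slc43a2* (151 ± 12.7 against 246 ± 32.0 CPM, -0.70, adjusted P = 0.0056). *Slc38a4*, a system A transporter, was lower from a low level (1.32 ± 0.29 against 3.39 ± 0.54 CPM, -1.36, adjusted P = 0.0103). The 3 higher genes were *Slc6a6*, which carries taurine (735 ± 74.0 against 482 ± 79.9 CPM, log2 fold change 0.61, adjusted P = 0.0286), *Slc6a12*, which carries betaine and GABA (4.20 ± 1.24 against 1.21 ± 0.41 CPM, 1.78, adjusted P = 0.0079) and *Slc6a13*, which carries GABA and taurine (115 ± 14.2 against 79.7 ± 11.2 CPM, 0.53, adjusted P = 0.0442; SD, n = 4 each). In all 8 of these genes the genotypes did not overlap, but they were named because they passed the test in the same mice. Of all tested genes, 5.62% had all ΔTAM mice below all controls and 4.17% had them above. The calls of *Slc6a6* and *Cltrn* held in 4 of 8 fits with a mouse left out, *Slc6a13* in 3 and *Slc6a19* in 6, and the other 4 in all 8. In the high-*Xist* mice 5 genes were higher, the same 3 with *Slc1a4* (0.95, adjusted P = 0.0087) and *Slc6a18* (0.52, adjusted P = 0.0191), and with *Xist* as a covariate 5, the same 3 with *Slc6a18* (0.44, adjusted P = 0.0203) and *Slc6a20b* (0.32, adjusted P = 0.0414).

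*Slc3a2*, *Slc7a5* and *Slc7a11* are known targets of the amino acid stress factor ATF4, and *Slc7a11* also of the oxidative stress factor Nrf2. Of 15 other genes on a list of ATF4 itself and its targets, all tested, 1 was lower and 0 were higher in edgeR (3 lower and 3 higher at an unadjusted P under 0.05). With DESeq2 1 was higher, and with edgeR's exact test and limma 0 were higher. The lower gene was the serine synthesis gene *Psat1* (10.8 to 16.4 against 17.9 to 28.8 CPM, log2 fold change -0.80, adjusted P = 0.0378), which passed in 2 of 8 fits with a mouse left out. The median log2 fold change of the list was -0.07. Of 16 genes on a list of Nrf2 itself and its targets, *Slc7a11* included, 2 were lower and 0 higher in edgeR (6 and 0 at an unadjusted P under 0.05, and 0 higher with DESeq2, edgeR's exact test and limma). These were heme oxygenase *Hmox1* (14.2 ± 3.38 against 26.3 ± 4.28 CPM, -0.88, adjusted P = 0.0194) and the quinone reductase *Nqo1* (15.4 ± 3.34 against 26.8 ± 5.52 CPM, -0.80, adjusted P = 0.0483; SD, n = 4 each), with a median of -0.38 over the list. The call of *Hmox1* held in 3 of 8 fits with a mouse left out (without ΔTAM mouse 1 or control mouse 1 or 2) and that of *Nqo1* in 2 (without ΔTAM mouse 4 or control mouse 3). With *Xist* as a covariate, 9 of the 16 were lower, in a fit that called more genes in general. It called 4.23% of all tested genes lower, against 1.58% without the covariate.

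Markers of the tubule segment that holds these transporters moved with them. Of 14 markers of the early and middle proximal tubule (S1 and S2), 7 were lower and 0 higher in edgeR (8 and 0 at an unadjusted P under 0.05, and 0 higher with DESeq2, edgeR's exact test and limma), with a median log2 fold change of -1.03 and a range of -3.78 to -0.03. The 4 with the smallest P were the bicarbonate transporter *Slc4a4* (738 ± 52.3 against 1466 ± 36.3 CPM, -0.99, adjusted P = 0.00011), the phosphate transporter *Slc34a1* (1745 ± 202 against 4098 ± 490 CPM, -1.23, adjusted P = 0.00022), the lactate transporter *Slc5a12* (106 to 142 against 302 to 513 CPM, -1.71, adjusted P = 0.00035) and the glucose transporter *Slc2a2* (69.9 ± 18.6 against 153 ± 10.5 CPM, -1.13, adjusted P = 0.0062). The summed level of the 14 markers was 10108, 14166, 13639 and 12668 CPM in ΔTAM mice 1 to 4 and 17546, 19791, 18692 and 18760 CPM in control mice 1 to 4, lowest in low-*Xist* mouse 1. *Lrp2*, the highest in CPM, did not pass (6759 against 7580 CPM, log2 fold change -0.17, adjusted P = 0.719). The part of a change in proximal tubule cells in the falls of the 4 transporters was not tested.

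The 9 tested markers of the S3 segment gave 0 lower and 0 higher in edgeR (0 and 2 at an unadjusted P under 0.05; DESeq2 called 1 higher, edgeR's exact test and limma 0). This list holds *Slc7a13* and other genes that differ by sex in the mouse. Over all 10 listed genes, tested or not, the sum was 5675 CPM in ΔTAM mouse 1. It was 3835 and 4337 CPM in control mice 3 and 4, and 1666 to 2314 CPM in the 5 high-*Xist* mice. The list's highest gene in CPM was *Atp11a*. For the other segments and cell types, the summed levels overlapped between the genotypes in markers of the thick limb (6037 ± 1304 against 6607 ± 583 CPM, most abundant gene *Umod*), distal convoluted tubule (1842 ± 360 against 1785 ± 383 CPM, *Slc12a3*), collecting duct (450.3 ± 61.0 against 428 ± 95.4 CPM, *Aqp2*), podocytes (458 ± 60.6 against 446 ± 56.0 CPM, *Podxl*), endothelium (437 ± 28.9 against 488 ± 33.4 CPM, *Plvap*), fibroblasts (398 ± 45.6 against 373 ± 94.9 CPM, *Col1a2*) and tubular injury (795 ± 162 against 969 ± 288 CPM, *Spp1*). ΔTAM mouse 1 had the lowest sum of all 8 mice in thick limb (4139 CPM), distal convoluted (1388 CPM), podocyte (371 CPM), endothelial (402 CPM) and injury markers (574 CPM), but not in collecting duct or fibroblast markers. Of these lists, 1 gene passed in edgeR, the endothelial receptor *Kdr* (84.7 ± 6.32 against 110 ± 7.17 CPM, log2 fold change -0.37, adjusted P = 0.0450; SD, n = 4 each), and it passed in 0 of 8 fits with a mouse left out. DESeq2 also called 1 distal convoluted gene lower and 1 injury gene higher, and edgeR's exact test 1 injury gene higher. At an unadjusted P under 0.05 in edgeR, 0 injury markers were lower and 2 higher. The median log2 fold change of the injury list was 0.20, although its sum was lower on average in ΔTAM mice. Macrophage markers summed to 109.6 ± 3.19 CPM in ΔTAM and 98.9 ± 3.85 CPM in control mice, with no overlap (106.1 to 113.7 against 93.7 to 102.2 CPM; most abundant *Csf1r*), with 0 of 8 called (0 lower and 2 higher at an unadjusted P under 0.05, and 0 called with DESeq2, edgeR's exact test and limma). Lymphocyte markers summed to at most 4.44 CPM (most abundant *Cd8a*), with *Ms4a1* at or near 0.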

How the data were processed

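Gene counts were deposited by the authors. Per the file headers, featureCounts 2.0.1 counted reads on exons by gene name with the Ensembl 102 annotation of GRCm38, without using strand, with mates counted singly and with reads that fit more than 1 place or gene left out, although the library kit was directional. The submitters' processing notes name Subread 2.0.2, featureCounts and edgeR 3.36.0. Here the counts were filtered (filterByExpr), scaled by TMM and tested with edgeR 4.0.16 in R 4.3.3 (robust quasi-likelihood test, genotype as the sole term), with Benjamini-Hochberg adjustment over all tested genes and a threshold of 0.05. The code was tested on simulated data. Intervals are 95% from the fit that gave the fold change. They rest on 4 mice per group, or on 3 ΔTAM and 2 control mice in the high-*Xist* fit. *Xist* was called high above 100 CPM. Ratios used unscaled counts per kb with no pseudocount. Replicates of a genotype differed by far more than sampling noise.

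The transporter genes and the gene lists were chosen with earlier results of these data known. Named genes were *Maf*, the 10 transporters, every called gene of the 2 lists of other transporters, up to 4 called genes of smallest P from each other list, the most abundant marker of each list and *Xist*. A few others (*Slc7a1*, *Alb*, *Cps1*, *Ms4a1*, *Ddx3y*, *Chac1*, *Slc1a4*, *Slc6a18*, *Slc6a20b*) were named after their values were seen. Overlap of exons was computed from the deposited coordinates. Alternatives were RLE and quantile scaling (limma 3.58.1), edgeR's exact test, DESeq2 1.42.0, other filters and thresholds, a replicate block, *Xist*, library sizes without mitochondrial and ribosomal RNA, and each mouse left out. Sequences came from RefSeq.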

Additional observations from a re-analysis of the deposited data

Results flagged for a closer look

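In 42 groups of 4 mice (10 genes and 11 ratios, in each genotype), the mouse farthest out was compared with the range of its group, and 4 exceeded the 95% critical value of Dixon's ratio. Chance alone flags about 1 in 20 groups, or 2.1 here. All 4 came from ΔTAM mouse 1, the only low-*Xist* mouse of its genotype and the one with the highest share of mitochondrial counts, and 3 of them rest on *Slc7a13*. *Slc7a13* stood at 204 CPM there, against 0.411 to 0.812 CPM in mice 2, 3 and 4 (Dixon's ratio 0.998). The ratio of *Slc7a13* to *Slc3a1* was 0.443 against 0.00080 to 0.0018 (0.998), and that of *Slc7a9* and *Slc7a13* summed to *Slc3a1* was 0.520 against 0.0942 to 0.111 (0.960). *Slc3a2* was at 60.9 CPM against 88.6 to 93.3 CPM (0.855). Without this mouse the log2 fold change of *Slc3a2* was -1.13, and it was called. The causes were not tested.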

How the results depend on the processing

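Among the 10 transporters, *Slc3a2*, *Slc7a7* and *Slc7a9* were called lower under every alternative run. *Slc7a8* kept its direction but not its call with quantile scaling and limma, with at least 1 count in any mouse, with the replicate block, at a threshold of 0.01, or without ΔTAM mouse 3 or 4 or control mouse 1, 2 or 4, which left 3 genes lower; 0 were higher under any. The 6 others were called under none. Of these, *Slc3a1* (-0.03) turned to 0.094 with quantile scaling, to 0.036 in the high-*Xist* mice and to 0.0061 without control mouse 4 (range -0.079 to 0.0061 with a mouse left out), *Slc7a5* (0.19) to -0.029 in the high-*Xist* mice and -0.061 without control mouse 4 (range -0.061 to 0.43), and *Slc7a6* (0.19) to -0.0070 without control mouse 4 (range -0.0070 to 0.34). Of the 7 light to heavy chain ratios, the log2 difference of *Slc7a13* to *Slc3a1* went from -2.72 to -0.84 in the high-*Xist* mice (-4.83 to -1.36 with a mouse left out, the extremes without ΔTAM mouse 1 and control mouse 4), and that of *Slc7a7* to *Slc3a2* (0.072) to -0.069 in the high-*Xist* mice and -0.065 without ΔTAM mouse 1. The other 5 kept their direction.

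Over all genes 318 were lower and 118 higher. DESeq2 gave 556 and 280, *Xist* as a covariate 853 and 521, and 0.01 gave 144 and 36. More were higher with the exact test (218), with at least 1 count in any mouse (191) and in the high-*Xist* mice (322). With a mouse left out the counts were 188 to 310 lower and 51 to 142 higher, fewest without ΔTAM mouse 3 (188 and 51) or 2 (198 and 58). They were also low without control mouse 3 (207 and 78), control mouse 4 (222 and 80) and control mouse 2 (227 and 74). The replicate numbers are not said to pair mice, and same-numbered mice did not deviate together (correlations -0.37, 0.15, -0.11 and -0.33); with the replicate block 111 genes were lower and 18 higher. *Maf* (-4.05, adjusted P = 0.0115) missed a threshold of 0.01 at -4.05, was at -4.28 with the block (adjusted P = 0.0516) and at -3.87 in the high-*Xist* mice. The causes were not tested.

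Other epithelial transporters (5 lower, 3 higher) numbered 3 lower with at least 1 count in any mouse, 2 lower and 0 higher with the block, 2 and 1 at 0.01, and 5 higher with the *Xist* covariate and in the high-*Xist* mice (3 to 5 lower and 1 to 4 higher with a mouse left out, 3 and 1 without ΔTAM mouse 3). Genes of the ATF4 list (1 lower, 0 higher) numbered 0 lower with the block, in the high-*Xist* mice and at 0.01, and 1 higher with DESeq2, with at least 1 count, with the covariate and in the high-*Xist* mice (0 to 1 each way with a mouse left out). Genes of the Nrf2 list (2 lower) numbered 1 with quantile scaling, with at least 10 counts in every mouse and with the block, 5 with DESeq2, 9 with the covariate, 4 in the high-*Xist* mice and 0 at 0.01 (0 to 2 with a mouse left out). S1 and S2 markers (7 lower) numbered 4 at 0.01. S3 markers (0 each way) numbered 1 higher with DESeq2, 2 higher with the covariate, and 1 lower and 2 higher in the high-*Xist* mice (0 to 1 higher with a mouse left out). Distal convoluted markers (0) numbered 1 lower with DESeq2 (0 to 1 with a mouse left out). *Kdr* was lost, leaving 0 endothelial markers, with quantile scaling, with the exact test, with the block, in the high-*Xist* mice, at 0.01 and without any 1 mouse. Hepatocyte markers (1 lower) numbered 2 with the exact test, DESeq2, the covariate and the high-*Xist* mice, and 0 with at least 10 counts, the block and 0.01 (0 to 2 with a mouse left out). Injury markers (0) numbered 1 lower with the covariate and in the high-*Xist* mice, and 1 higher with the exact test, DESeq2 and the covariate.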

Other observations

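*Ttr*, the thyroid hormone carrier transthyretin, which was on the hepatocyte list, fell from 31.5 to 67.8 CPM in control mice to 0.204 to 3.03 CPM in ΔTAM mice (log2 fold change -5.02, SE 0.68, adjusted P = 0.0152, edgeR), the largest fall among the genes named here. It was the 1 gene called of 4 tested on that list, and passed in 6 of 8 fits with a mouse left out. The list summed to 25.6 to 31.9 CPM in ΔTAM and 59.0 to 121 CPM in control mice, with *Fga* its highest gene in mean CPM of the 8 mice and *Ttr* higher than *Fga* in the mean of the controls (41.4 against 32.4 CPM). Among ATF4 targets, the glutathione-degrading enzyme *Chac1*, singled out after its values were seen, was called higher in the 5 high-*Xist* mice (log2 fold change 2.07, adjusted P = 0.0036) but not in all 8 (1.46, adjusted P = 0.117). Whether these fits differ was not tested.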
